A study of Mus musculus with 31 samples.

Results

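The genes described here are the receptors through which myeloid and erythroid cytokines act: Csf2ra, Il3ra, Il5ra, Csf2rb, Csf2rb2, Csf3r, Il6ra, Il6st, Epor and Il1rl1. They were chosen by symbol, and 9 of the 10 have a probe of their own in the array's annotation, among 19938 genes measured in all. Il1rl1, the receptor chain for the alarmin cytokine IL-33, pairs with no single-gene probe in that annotation and was not analysed here. Each of the other 9 is read by 1 probe, so no second probe checks any value below.

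All of these but Il1rl1, which belongs to the interleukin 1 receptor family, are cytokine receptors without enzyme activity of their own that signal through Janus kinases and STAT transcription factors once a ligand joins their chains. Csf2ra, Il3ra and Il5ra are the ligand-binding alpha chains for GM-CSF, interleukin 3 and interleukin 5, and each pairs with the common beta chain Csf2rb. Mice carry a further beta chain, Csf2rb2, that serves interleukin 3 alone. Il6ra binds interleukin 6 and signals through Il6st, known as gp130, which is also the signalling chain for leukaemia inhibitory factor, oncostatin M and interleukin 11. Csf3r binds G-CSF, the main growth factor of neutrophils, and Epor binds erythropoietin, which red cell precursors need to survive.

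RNA from 9 populations of C57BL/6 mouse bone marrow was hybridised to 31 Affymetrix arrays, 20000 sorted cells a sample. Long-term and short-term stem cells (LT-HSC, 4 arrays, and ST-HSC, 3) and the multipotent progenitors MPP2 (3), MPP3 (3) and MPP4 (5) were all sorted as Lin-, cKit+ and Sca1+. Within that gate MPP4 was Flk2+ and the rest Flk2-. LT-HSC lacked CD48 and carried CD150, ST-HSC had neither, MPP2 had both and MPP3 had CD48 alone. Common myeloid progenitors (CMP, 3) and granulocyte-macrophage progenitors (GMP, 4) were Lin-, cKit+ and CD34+ and differed in the Fc gamma receptor, present on GMP. Pre-granulocytes (PreGr, 3) and granulocytes (Gr, 3) were Mac1+ with intermediate or high Gr1. The labels call the replicates biological but give no age, sex or pooling of the mice, and neither Mac1 nor Gr1 is restricted to neutrophils.

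Levels are log2 values brought to a common scale by quantile normalization, so a difference of 1 is a doubling. The deposited arrays fell into 5 sets, apparent from their overall level and from identical values shared between arrays, which the labels do not name. Set 1 held LT-HSC 1 to 3. Set 2 held LT-HSC 4, MPP3 3, MPP4 4 and 5 and GMP 4. ST-HSC, MPP2 and MPP3 1 and 2 made up set 3, MPP4 1 to 3 and CMP set 4, and GMP 1 to 3, PreGr and Gr set 5. Every comparison was therefore fitted with limma without the set and again with the set as a block, and a gene is said here to have risen or fallen only where both fits called it in the same direction at an adjusted p below 0.05 over all genes. Sort markers followed most gates: Slamf1 (CD150) averaged 5.05 ± 0.34 in ST-HSC and 8.71 ± 0.61 in LT-HSC (SD, n = 3 and 4), Flt3 (Flk2) was highest in MPP4, at 11.27 ± 0.54 (SD, n = 5), and Itgam (Mac1) averaged 11.92 ± 0.57 in Gr (SD, n = 3). In MPP2, also sorted as CD150+, Slamf1 averaged 6.83 ± 0.41 (SD, n = 3), and in ST-HSC, sorted as Flk2-, Flt3 averaged 9.96 ± 0.09 (SD, n = 3). As a guide to background, 95% of the values of 1027 olfactory receptor genes over all arrays lay below 7.05. Il5ra was below that level in every population, and Csf2rb2 and the sort marker Slamf1 were below it in MPP2.

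The promoters of 3 receptors are shown because their transcripts took different courses: Csf3r was highest in granulocytes, Csf2rb2 stepped up at the pre-granulocyte stage and Epor had its 2 highest means in CMP and Gr. All Epor means lay close to the background guide. Each line gives the 100 bases that end just before the RefSeq transcript start (build GRCm38.p6), read in the direction of the gene. Capitals mark a PU.1-type motif (GAGGAAG) in Csf3r, a STAT-type motif (TTCNNNGAA) in Csf2rb2 and a GATA motif (AGATAA, here on the opposite strand) in Epor. The Csf3r window is chr4:126024559-126024658 on the plus strand, the Csf2rb2 window chr15:78305722-78305821 on the minus strand and the Epor window chr9:21963577-21963676 on the minus strand.
Csf3r: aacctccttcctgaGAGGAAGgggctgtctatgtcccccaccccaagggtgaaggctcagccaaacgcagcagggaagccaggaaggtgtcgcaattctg
Csf2rb2: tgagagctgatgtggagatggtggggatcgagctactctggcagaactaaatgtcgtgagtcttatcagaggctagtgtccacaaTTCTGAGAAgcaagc
Epor: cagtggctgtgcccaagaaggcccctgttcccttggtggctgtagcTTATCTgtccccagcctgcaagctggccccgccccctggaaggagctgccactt

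Searched on both strands over the 250 bases before the start, PU.1-type letters occurred in 10.6% of 32851 promoters in the table, GATA letters in 9.99% and STAT-type letters in 7.02%. With the base just before the start as -1, the match in Csf3r begins at position -86, the STAT-type match in Csf2rb2 at -15 and the match in Epor at -54. Csf2ra held 2 PU.1-type matches, at -14 and -8, which share a base. Csf2rb2 held a further PU.1-type match at -168, and GATA letters began at -74 in Il5ra and at -245 in Il6ra. In the 2 entries of Il1rl1, GATA letters began at -217 and at -103. Il3ra and Il6st held none of the 3 motifs in this window. The table had an entry for 9 of the 10 receptors, Csf2rb being the other. At shares this high a match is given as a description of the letters, and binding was not tested.

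All 9 measured receptors passed limma's moderated F test for a difference among the 9 populations, both without and with the set block, with adjusted p-values between 2.13e-12 (Csf3r) and 0.00221 (Epor) without it. For Il5ra, which was below the background guide throughout, the test is not read as a change in expression. The same test called 74.2% of all genes without the block and 48% with it, so such variation was common among genes. The receptors differed in how far their means ranged. Csf3r spanned 3.39 on the log2 scale between its lowest and highest population, Csf2rb 2.33, Csf2ra 1.98, Il6st 1.91, Csf2rb2 1.71 and Il6ra 1.21. The remaining 3 moved by less than 1: Il5ra by 0.93, Il3ra by 0.80 and Epor by 0.63. Csf2ra, Csf2rb, Csf2rb2, Csf3r and Il6ra all had their highest mean in Gr and their next highest in PreGr, while Il6st had its highest mean in PreGr and its lowest in Gr.

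**Figure D1:**
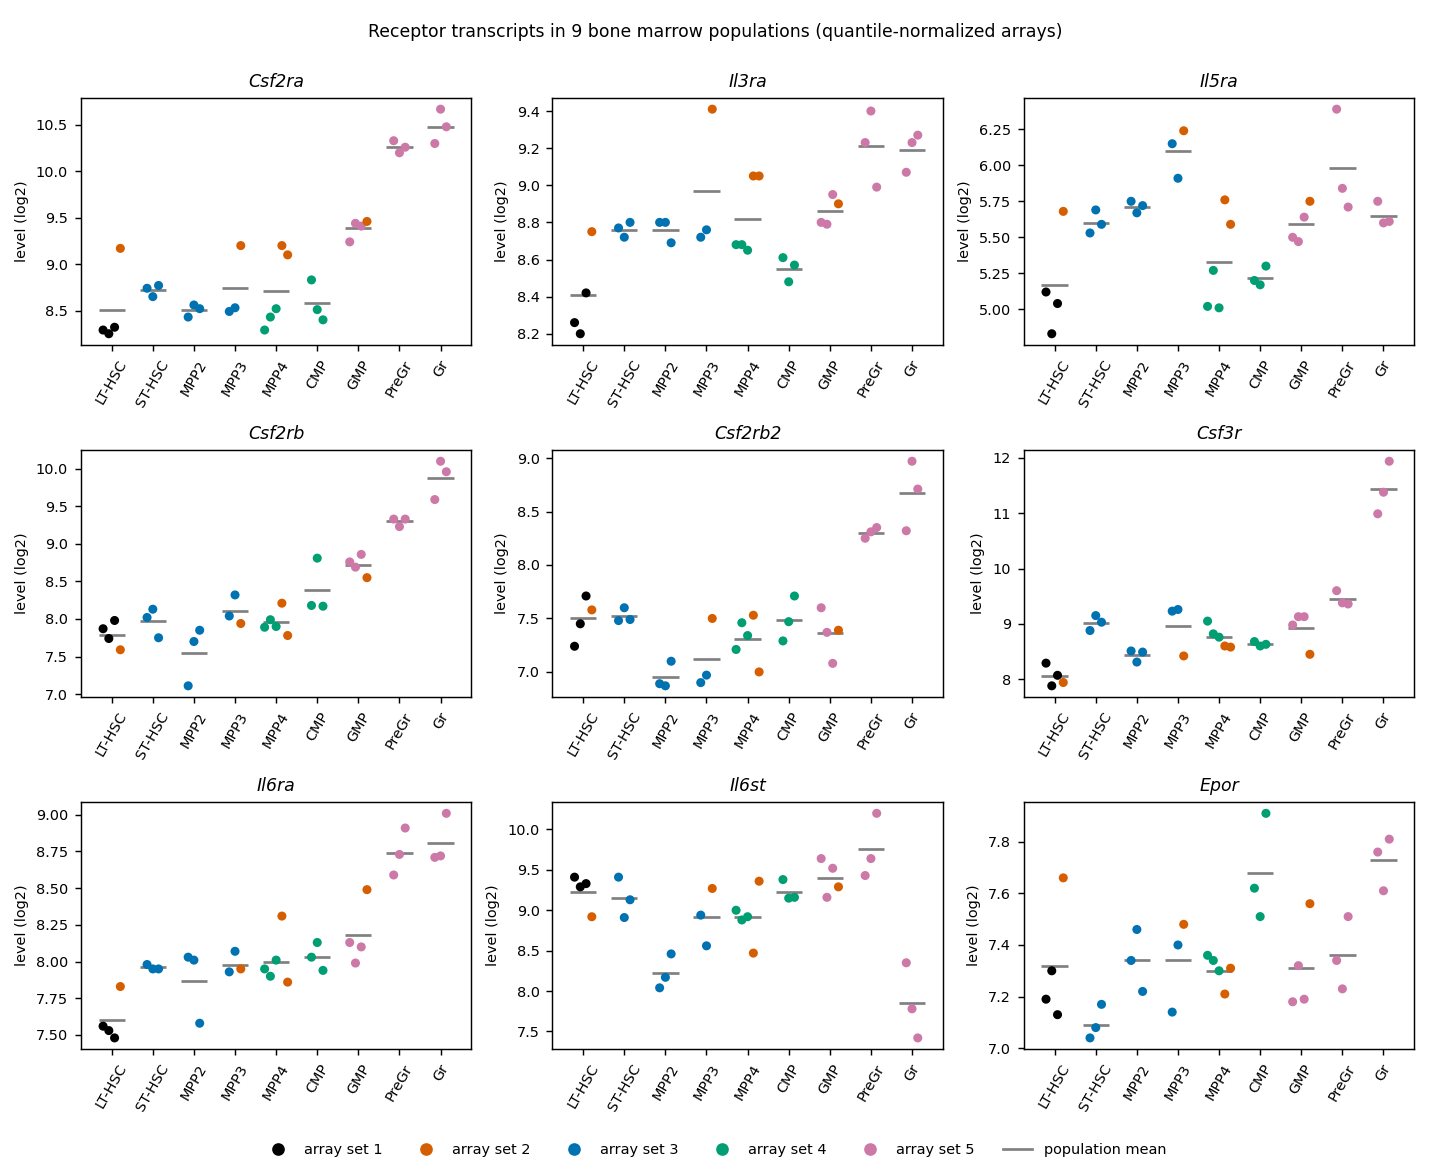
Level of each measured receptor (log2, quantile-normalized) on every array, by population, coloured by array set, with grey bars for population means. Csf3r sits between 10.99 and 11.94 in Gr and at 9.60 or below elsewhere, and Il6st between 7.42 and 8.35 in Gr; the orange arrays of set 2 lie above the other arrays of their population for Csf2ra in LT-HSC, MPP3 and MPP4.

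**Figure D2:**
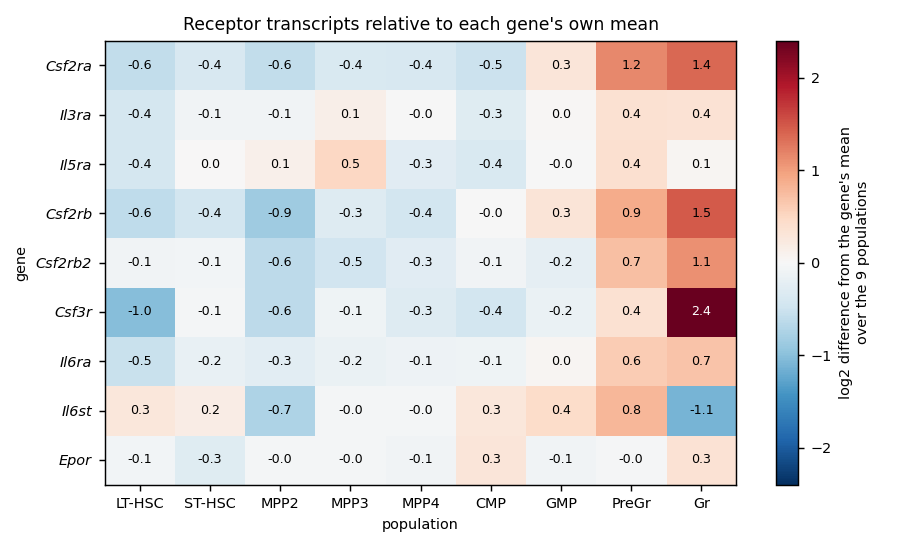
Population means of each receptor as log2 differences from the gene's own mean over the 9 populations, in stage order from left to right. Gr stands 2.36 above the mean for Csf3r and 1.38 for Csf2ra, and Il6st is 1.11 below its mean there.

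Pre-granulocytes had higher levels than GMP of the GM-CSF receptor chains, the interleukin 3 beta chain and the interleukin 6 binding chain. In PreGr versus GMP, 4 of 9 receptors rose in both fits (Csf2ra, Csf2rb, Csf2rb2 and Il6ra) and none fell, against 15.6% of all genes called and 6.63% called higher. The median change of the 9 receptors was 0.53, and that of all genes -0.02. Groups did not overlap for 6 of the 9 receptors, against 29.3% of all genes. Between Gr and PreGr, 4 of 9 receptors were called in both fits, Csf3r, Csf2rb and Epor higher and Il6st lower, against 19.3% of all genes (8.12% higher and 11.2% lower). Here the median of the receptors was 0.22 and that of all genes 0.02, and the groups did not overlap for 4 of 9, against 39.5% of all genes. Leaving out PreGr 2 or Gr 3 brought that count to 2, because Csf2rb and Epor were lost.

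**Figure D3:**
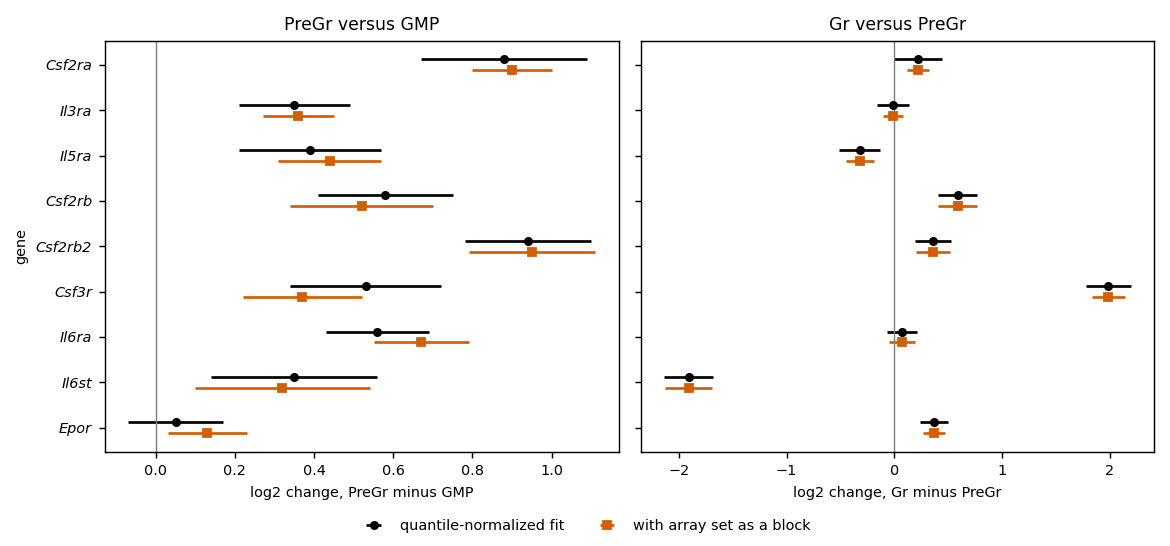
Log2 change of each receptor with its standard error, PreGr minus GMP on the left and Gr minus PreGr on the right, from the fit without (black) and with (orange) the array set as a block. Csf2ra and Csf2rb2 move by 0.88 and 0.94 in the first step, and Csf3r and Il6st by 1.99 and -1.91 in the second.

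Csf2ra, the GM-CSF binding chain, had 10.33, 10.20 and 10.26 in PreGr, against 9.24, 9.44, 9.41 and 9.46 in GMP. Every PreGr array was above every GMP array. The rise was 0.88 ± 0.21 (SE), or 1.83-fold, with an adjusted p of 0.00276 without the set block and 5.93e-07 with it. In Gr it reached 10.30, 10.67 and 10.48, which overlaps PreGr, and the difference of 0.22 ± 0.22 was not called (adjusted p = 0.61). Earlier populations were not ordered: means from LT-HSC through CMP lay between 8.51 and 8.74. When these populations are ranked by mean, the ranges of neighbours overlapped. ST-HSC (8.65 to 8.77) and MPP2 (8.43 to 8.56) did not overlap, but their difference was not called (adjusted p = 0.671 without and 0.191 with the set block). On the arrays of set 2, Csf2ra read 9.17 in LT-HSC 4, 9.20 in MPP3 3 and 9.20 and 9.10 in MPP4 4 and 5, against 8.25 to 8.53 on the other arrays of those 3 populations. For GMP versus CMP the change was 0.81 ± 0.21 without the set block (adjusted p = 0.00966) and 0.14 ± 0.18 with it (adjusted p = 0.819), so no rise is stated for that step.

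Csf2rb, the common beta chain, climbed in both granulocyte steps. Its levels were 8.76, 8.69, 8.86 and 8.55 in GMP, 9.33, 9.23 and 9.33 in PreGr and 9.59, 10.10 and 9.96 in Gr. No 2 of these populations overlapped. PreGr exceeded GMP by 0.58 ± 0.17 (SE; 1.5-fold; adjusted p = 0.0141 without and 0.0415 with the set block), and Gr exceeded PreGr by 0.59 ± 0.18 (1.5-fold; adjusted p = 0.0179 and 0.0162). Neither call was firm. Without any single array of GMP 1 to 3 or PreGr the first was lost in the set-block fit (adjusted p between 0.0619 and 0.129), and without PreGr 2, Gr 2 or Gr 3 the second was lost in both fits (0.0569 to 0.113). On the deposited scale the first step had an adjusted p of 0.0528 and the second 0.246, and with arrays centred on their medians the second had 0.0911. Within set 5 alone the changes were 0.52 (adjusted p = 0.0126) and 0.59 (0.00554).

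Csf2rb2, the interleukin 3 beta chain, stood at 8.25, 8.31 and 8.35 in PreGr, against 7.60, 7.37, 7.08 and 7.39 in GMP. That rise was 0.94 ± 0.16 (SE; 1.92-fold; adjusted p = 6.22e-05 without and 0.000106 with the set block), and no left-out array ended it. Gr had 8.32, 8.97 and 8.71, a difference from PreGr of 0.36 ± 0.17 that was not called (adjusted p = 0.156). From LT-HSC to GMP its means lay between 6.95 in MPP2 and 7.52 in ST-HSC. The genes lie 20078 bases apart on chromosome 15 and are close paralogs, so a probe meant for either may also bind the other's transcript, and that part in their shared rise was not tested.

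Il3ra, the interleukin 3 binding chain, changed little. It had 9.23, 9.40 and 8.99 in PreGr, against 8.80, 8.79, 8.95 and 8.90 in GMP, and the difference of 0.35 ± 0.14 (SE) was called with the set block (0.36 ± 0.09, adjusted p = 0.00474) but not without it (adjusted p = 0.115). Gr, at 9.07, 9.23 and 9.27, overlapped PreGr. The mean was lowest in LT-HSC, at 8.41 ± 0.25 (SD, n = 4). Il5ra, the interleukin 5 binding chain that eosinophils carry, had means from 5.17 in LT-HSC to 6.10 in MPP3. All lie below the background guide of 7.05, and no change in it is stated. Its highest array was PreGr 1, at 6.39.

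Csf3r, the G-CSF receptor, had the widest range of the receptors. Gr arrays read 10.99, 11.38 and 11.94, against 9.60, 9.38 and 9.36 in PreGr. The groups were far apart. The rise was 1.99 ± 0.21 (SE), 3.97-fold, with an adjusted p of 4.1e-08 without and 1.79e-09 with the set block, and leaving out single arrays kept it between 1.74 and 2.2. PreGr versus GMP (8.98, 9.13, 9.13 and 8.45 in GMP) gave 0.53 ± 0.19 without a call in either fit (adjusted p = 0.0595 and 0.0974), although the groups did not overlap. Below PreGr came ST-HSC, MPP3, GMP, MPP4, CMP, MPP2 and LT-HSC, with means from 9.02 to 8.05. LT-HSC arrays, at 8.29, 7.88, 8.07 and 7.94, lay below every array of the other 8 populations.

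Higher Csf3r in progenitors than in LT-HSC was called only without the set block. ST-HSC (8.88, 9.15 and 9.03) exceeded LT-HSC by 0.98 ± 0.19 (SE; adjusted p = 0.000913), MPP3 by 0.92 ± 0.19 (0.00105), MPP4 by 0.72 ± 0.17 (0.00304) and CMP by 0.59 ± 0.19 (0.0283). With the block these became 0.25, 0.48, 0.64 and 0.40, with adjusted p-values of 0.733, 0.287, 0.137 and 0.447. In that fit the stem cells are represented only through LT-HSC 4, since set 1 holds no other population. Set and population cannot be told apart for the other 3 LT-HSC arrays.

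The 2 chains of the interleukin 6 receptor parted in granulocytes. Il6ra had 8.59, 8.73 and 8.91 in PreGr, against 8.13, 7.99, 8.10 and 8.49 in GMP, a rise of 0.56 ± 0.13 (SE; 1.48-fold; adjusted p = 0.00216 without and 0.000205 with the set block). The highest GMP array, is GMP 4 of set 2, and the change within set 5 was 0.67 (adjusted p = 0.00184). Gr, at 8.71, 8.72 and 9.01, overlapped PreGr and the difference of 0.07 ± 0.14 was not called (adjusted p = 0.843). Il6st, the signalling chain, had 8.35, 7.78 and 7.42 in Gr, against 9.43, 9.64 and 10.20 in PreGr. It fell by 1.91 ± 0.23 on the log2 scale, or 3.76-fold (adjusted p = 4.25e-07 without and 8.97e-07 with the set block), and stayed between -2.16 and -1.68 when single arrays were left out. PreGr and GMP (9.64, 9.16, 9.52 and 9.29 in GMP) overlapped for Il6st, with a difference of 0.35 ± 0.21 (adjusted p = 0.34).

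Epor had its highest means in Gr and CMP, within a range of 0.63 over all populations. Gr had 7.76, 7.61 and 7.81, against 7.34, 7.23 and 7.51 in PreGr, and rose by 0.37 ± 0.13 (SE; 1.29-fold; adjusted p = 0.0461 without and 0.00798 with the set block). The call sat at the threshold. It was lost without LT-HSC 2, any ST-HSC array, MPP2 1, MPP3 2, MPP4 1, 2, 3 or 5, CMP 1, GMP 2, PreGr 1 or 2, or Gr 1 or 3, 16 arrays in all (adjusted p between 0.0503 and 0.203), and also with median centring (0.102) or on the deposited scale (0.44). CMP had 7.62, 7.51 and 7.91, against 7.36, 7.34, 7.30, 7.21 and 7.31 in MPP4. Those groups did not overlap, but the difference of 0.38 ± 0.12 passed only with the set block (adjusted p = 0.0354, and 0.0554 without). Erythroid markers averaged 8.64 ± 0.02 in CMP and 7.95 ± 0.19 in MPP4 (SD over arrays, n = 3 and 5, 9 genes), and their part in the Epor values was not tested. In Gr and PreGr the same list averaged 7.54 and 7.58, and 0 of its 9 genes were called between them.

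Transcripts used as markers of other cell types stood at different levels in the granulocyte gates. Which cells they came from, the gated cells included, was not tested. Over all genes 15.6% were called in both fits in PreGr versus GMP and 19.3% in Gr versus PreGr. In a bulk sample, fewer cells of a type and less RNA per cell cannot be told apart. Eosinophil markers (6 genes) averaged 7.89 ± 0.12 in GMP, 9.53 ± 0.53 in PreGr and 8.08 ± 0.43 in Gr (SD, n = 4, 3 and 3), with array means of 7.79 to 8.05, 9.07 to 10.10 and 7.64 to 8.50. Of these 6, 5 rose in PreGr versus GMP and 5 fell in Gr versus PreGr. Monocyte and macrophage markers (9 genes) averaged 7.92 ± 0.10 in GMP, 8.79 ± 0.16 in PreGr and 8.06 ± 0.17 in Gr (array means 7.81 to 8.02, 8.67 to 8.96 and 7.94 to 8.25), with 5 higher in PreGr than GMP and 6 lower in Gr than PreGr. B and plasma cell markers (7 genes) averaged 6.57 ± 0.09 in GMP, 7.98 ± 0.33 in PreGr and 8.35 ± 0.43 in Gr, with 4 higher in PreGr than GMP and 2 higher in Gr than PreGr. Neutrophil markers (12 genes) averaged 8.77 ± 0.45 in GMP, 11.82 ± 0.20 in PreGr and 12.18 ± 0.14 in Gr, with 9 higher in PreGr than GMP. Between Gr and PreGr, 5 neutrophil markers were higher and 3 lower (Mpo, Elane and Prtn3). Basophil and mast cell markers averaged 8.05, 8.38 and 8.57 in the same stages, with 1 of 9 called in each step. Of 7 markers of type 2 innate lymphoid and T cells, 2 rose in PreGr versus GMP, Klrg1 and Cd3d (list median 0.03). In Gr versus PreGr Cd3d rose and Klrg1 fell (list median -0.08). Cd3d, a chain of the T cell receptor complex, had means of 6.12 in GMP, 9.51 in PreGr and 12.31 in Gr, the first below the background guide. The list as a whole did not move with it. A single marker of the monocyte list stayed below the background guide in every population, and none of the eosinophil, neutrophil or B cell lists did. Genes of the eosinophil, monocyte, neutrophil and B cell lists moved in the same steps as Csf2ra, Csf2rb2, Il6ra, Csf3r and Il6st. The part of any list in those receptor changes was not tested.

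**Figure D4:**
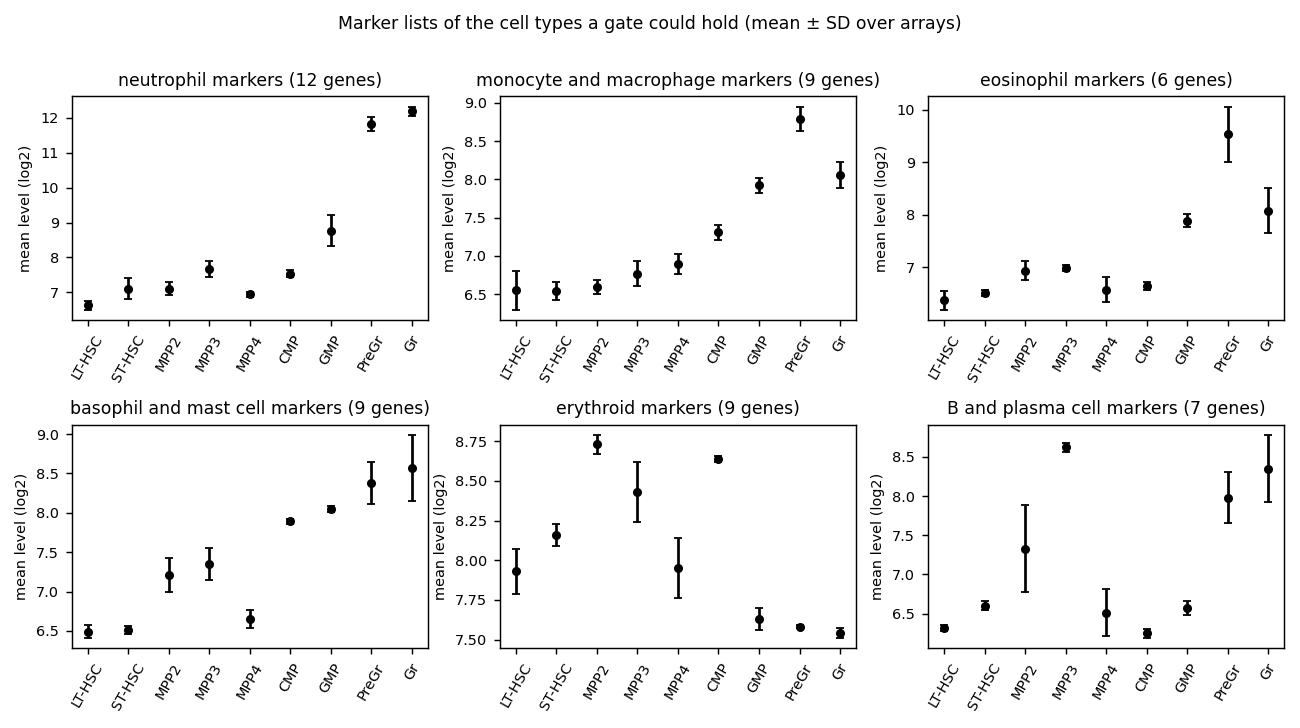
Mean level (log2, mean and SD over arrays) of 6 marker lists in the 9 populations, in stage order. Eosinophil and monocyte markers peak in PreGr, at 9.53 and 8.79, neutrophil markers reach 12.18 in Gr, and erythroid markers are highest in MPP2 and CMP, at 8.73 and 8.64.

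Among stem and multipotent cells, MPP2 had less Il6st than ST-HSC and a lower Csf2rb2 reading. These 2 of 9 receptors were called in both fits, against 6.58% of all genes (3.78% called lower), and both populations lie in set 3. Il6st had 8.04, 8.17 and 8.46 in MPP2, against 9.41, 8.91 and 9.13 in ST-HSC, and fell by 0.93 ± 0.23 (SE) on the log2 scale, 1.90-fold (adjusted p = 0.0101 without and 0.00804 with the set block). Csf2rb2 had 6.89, 6.87 and 7.10 in MPP2, against 7.48, 7.60 and 7.49 in ST-HSC, and fell by 0.57 ± 0.17 (adjusted p = 0.039 and 0.0222). The MPP2 mean of Csf2rb2, 6.95, was below the background guide, so no fold is given and that difference is not an exact size. Neither pair of groups overlapped. Both calls were lost without ST-HSC 1 (adjusted p = 0.0815 for Il6st and 0.0922 for Csf2rb2) or MPP2 1 (0.0577 and 0.125), and Csf2rb2 also without ST-HSC 2 (0.12), ST-HSC 3 (0.0886) or MPP2 2 (0.131). With median centring the adjusted p was 0.0753 for Il6st and 0.118 for Csf2rb2, and on the deposited scale 0.114 and 0.363.

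Csf3r was also lower in MPP2 (8.51, 8.31 and 8.49) than in ST-HSC (8.88, 9.15 and 9.03), by -0.58 ± 0.21 (SE), but passed only with the set block (adjusted p = 0.014, and 0.098 without). Against MPP3 the set block gave -0.81 (adjusted p = 0.0156) and the other fit -0.53 (0.307). Markers of other lineages moved in MPP2 as well: 3 of 9 erythroid markers and 4 of 7 megakaryocyte markers rose against ST-HSC, including Gata1 by 1.01, the erythroid carbonic anhydrase Car1 by 2.85 and the platelet glycoprotein Gp5 by 1.57. Over all genes 2.8% were called higher in MPP2. Their part in the receptor differences was not tested.

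Il3ra was the only receptor called in both fits in a comparison with LT-HSC. MPP3 had 8.72, 8.76 and 9.41, against 8.26, 8.20, 8.42 and 8.75 in LT-HSC, a difference of 0.56 ± 0.14 (SE; 1.47-fold; adjusted p = 0.00585 without and 0.0135 with the set block), where 4.02% of all genes were called and 2.27% called higher. The groups overlapped. MPP3 3 and LT-HSC 4, the 2 arrays that share a set, are each the highest of their population, and the set-block value of 0.66 rests on that pair. Without MPP3 3 the difference was 0.34 (adjusted p = 0.0825), and with arrays centred on their medians it was 0.12 (adjusted p = 0.349).

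In the other 9 comparisons none of the 9 receptors was called in both fits by limma, where few genes were called at all: 4.45% in MPP2 versus LT-HSC, 4.03% in CMP versus MPP4, 3.44% in CMP versus LT-HSC and 1.99% in MPP4 versus LT-HSC. The share was 1.04% in GMP versus CMP, 0.998% in MPP2 versus MPP4, 0.662% in MPP2 versus MPP3, 0.537% in ST-HSC versus LT-HSC and 0.281% in MPP3 versus MPP4. Without the set block limma called 4 of 9 receptors in CMP versus LT-HSC (Csf2rb, Csf3r, Il6ra and Epor), where 21.5% of all genes were called, 3 in MPP2 versus LT-HSC (Csf2rb2, Il6st and Il5ra; 36.1%), 3 in MPP4 versus LT-HSC (Csf3r, Il3ra and Il6ra; 24.7%) and 2 in ST-HSC versus LT-HSC (Csf3r and Il6ra; 22.8%). It called 2 in GMP versus CMP (Csf2ra and Epor; 11.7%), Il6st in MPP2 versus MPP4 (14.8%) and Il5ra in MPP3 versus MPP4 (1.56%), and 0 in MPP2 versus MPP3 (0.963%) and CMP versus MPP4 (5.1%). With the set block 1 receptor was called in each of MPP2 versus LT-HSC (Il3ra; 8.16% of all genes), MPP2 versus MPP3 (Csf3r; 1.06%) and CMP versus MPP4 (Epor; 7.23%), and 0 in the rest. At an unadjusted p under 0.05 in both fits the count lay between 0 (MPP2 versus MPP4, GMP versus CMP) and 4 (MPP2 versus MPP3). The share over all genes is not given for that looser rule, so these counts are not read as a result about the receptors. Over the 117 receptor and comparison pairs, 11 were called in both fits, with the share over all genes given above for each comparison. Leaving out any array that could be left out changed the count in these 9 comparisons only for MPP4 versus LT-HSC and CMP versus MPP4, where it reached 1 at most.

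The rest of the pathway was followed in gene lists. Transcripts of the 7 ligands were all below the background guide, with population means of at most 6.45 (Csf3 in LT-HSC). Il6 was the only ligand called in both fits in either granulocyte step, with 5.00 in PreGr and 4.24 in GMP. The list of other cytokine receptors was longer, with 25 genes measured. In PreGr versus GMP, 7 of 25 rose and 1 fell (median 0.09), and in Gr versus PreGr 9 rose and 3 fell (median 0.19). Over all genes 15.6% and 19.3% were called in these steps. The interleukin 1 decoy receptor Il1r2 averaged 6.27 in GMP, 8.97 in PreGr and 11.69 in Gr, rising by 2.70 ± 0.22 (SE) and then by 2.72 ± 0.24. Both chains of the interleukin 18 receptor followed, Il18r1 by 2.43 and then 1.12 and Il18rap by 1.83 and then 1.62. In MPP2 versus ST-HSC, 1 of 25 rose and 2 fell (median -0.15, all genes 0.07), Il12rb2 by 0.83, Il18rap by -1.06 and Il4ra by -0.92. There 6.58% of all genes were called. Il13ra1 rose by 2.35 in PreGr versus GMP, and Il7r by 1.12 in Gr versus PreGr, to a level of 6.38 that is below the background guide. The GMP means of Il1r2 (6.27), Il18r1 (5.79) and Il13ra1 (6.04) were also below it, so their changes from GMP to PreGr are not exact sizes.

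Of 17 signal transducers, 4 rose and 1 fell in PreGr versus GMP (median 0.25), led by Stat6, which interleukin 4 and 13 receptors use, at 0.69 ± 0.12 (SE), and the kinase Jak2, which serves the beta chain and erythropoietin receptors, at 0.67 ± 0.14. Fes, a tyrosine kinase of myeloid cells, rose by 0.50 and Irak1 of the interleukin 1 pathway changed by -0.42. In Gr versus PreGr 5 rose and 2 fell (median 0.30). Over all genes 15.6% were called in PreGr versus GMP and 19.3% in Gr versus PreGr. Stat4 rose by 1.4 ± 0.21, Jak1, a kinase bound to gp130, by 0.92 ± 0.14 and Stat3, the main STAT of the G-CSF and interleukin 6 receptors, by 0.64 ± 0.12, while the adaptor Shc1 changed by -0.88. Stat3 and Jak1 were higher in Gr, where Csf3r was higher and Il6st lower. In MPP2 versus ST-HSC, 2 of 17 fell (median -0.07), Stat4 by 1.21 and Jak1 by 0.69, where 6.58% of all genes were called.

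Of 15 signal inhibitors, 2 rose in PreGr versus GMP (median 0.16), the phosphatase Ptpn6 (SHP-1) by 0.72 and the ubiquitin ligase Cbl by 0.47. Over all genes 15.6% were called in that step, so 2 of 15 is not above the common share. In Gr versus PreGr the share over all genes was 19.3%. In Gr versus PreGr 3 rose and 2 fell (median 0.13), Socs6 by -1.66 and Socs7 by -0.57, with Cbl at 0.56 and Socs3, the feedback inhibitor that binds gp130 and the G-CSF receptor, at 0.51. Among 16 known STAT target genes, 4 rose and 2 fell in PreGr versus GMP (median 0.26). Cyclin genes went opposite ways there, Ccnd2 by -1.78 ± 0.14 (SE) and Ccnd3 by 0.93 ± 0.12, and Id1 rose by 0.84 and the survival gene Bcl2l1 by 0.73. In Gr versus PreGr 5 rose and none fell (median 0.17). Osm, which encodes oncostatin M, a cytokine that acts through gp130 on other cells, averaged 10.42 in Gr and 8.12 in PreGr, a rise of 2.30 ± 0.24. Mcl1, a survival gene of neutrophils, rose by 0.79, Socs3 by 0.51 and Bcl3 by 0.46. In MPP2 versus ST-HSC, 2 of 15 inhibitors (Cish by -0.63 and Inpp5d by -0.59) and 3 of 16 targets (Cish, Mcl1 by -0.65 and Ccnd2 by -0.49) fell, with list medians of -0.33 and -0.16. The share over all genes called there was 6.58%. Cish and Socs3 stand in both lists.

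Across the 9 population means the GM-CSF chains Csf2ra and Csf2rb ran together (Pearson r = 0.957; 0.865 over the 31 arrays), as did Csf2ra and Il6ra (0.961; 0.879). Il6st had a negative r with every other measured receptor, between -0.506 with Csf3r and -0.0491 with Il5ra. The means share their arrays and sets, so these values are descriptions. Among 6012 genes whose means spanned at least 1, those most like each receptor over the 9 means were Wfdc21 (r = 0.998), Sema4a and Pglyrp1 for Csf2ra, and Rin3 (0.996), Myo1f and Fcer1g for Csf2rb. For Csf2rb2 they were Lats2 (0.991), Bnip2 and Slc35a5, for Csf3r Arhgap15 (0.982), Xylt1 and Steap4, and for Il6ra Ncf4 (0.986), Morrbid and Ltb4r1. Il6st was most like Ccdc50 (0.941), Unc13a and Uprt, with lower coefficients than those of the other 5.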

How the data were processed

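The deposited values are log2 expression values, 35557 probes on 31 arrays; per the submitters' processing notes the authors used RMA, version not given in the sources used here. Of the probes, 21789 pair with 1 gene in the platform annotation, and where a gene had several (999 genes) its brightest was used. Arrays were quantile-normalized and fitted with limma 3.58.1 in R 4.3.3 (lmFit, 1 mean per population, eBayes, 22 residual degrees of freedom), two-sided, with Benjamini-Hochberg adjustment over 19938 genes, in 13 comparisons. The second fit blocked on array set, which left 18 degrees of freedom. Sets link arrays that share at least 2 identical values. The receptors, lists and set block were chosen with earlier results of these data known. From each list up to 4 genes with the largest change called in both fits are named, and for receptors spanning at least 1 the 3 genes of highest correlation. The scripts were tested on simulated data. The number of arrays limits precision. Each p-value of a comparison sets a difference in means against a spread between arrays that is estimated over all populations together.

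The r between deviations of arrays with the same replicate number was positive in every pair only in MPP4 versus LT-HSC and CMP versus MPP4. It lay between 0.126 and 0.271 over 4 pairs in the first and between 0.0181 and 0.162 in the second. This is a pattern in the data and not stated in the labels. In MPP4 and LT-HSC, replicate 4 lies in set 2 and replicates 1 to 3 do not, so number and set cannot be told apart. Blocking on replicate numbers left the count of MPP4 versus LT-HSC at 3. Other alternatives were the deposited scale, median centring, the mean of probes, a filter on dim genes, a variance trend, fits within 1 set and leaving out arrays. Figures used matplotlib 3.10.9.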

Additional observations from a re-analysis of the deposited data

Results flagged for a closer look

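Csf2ra in LT-HSC read 9.17 on LT-HSC 4, against 8.25 to 8.32 on the other 3 arrays, a gap of 0.931 of the range over all 4. Of 27 receptor and population groups with 4 or more arrays this was the only such gap. Chance gives about 1 such gap in 20 groups, so 1 among 27 is no more than chance would give. LT-HSC 4 belongs to array set 2 and the other 3 to set 1; the other set 2 arrays of MPP3 and MPP4 were also high for Csf2ra.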

How the results depend on the processing

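All 9 receptors, Il5ra below the background guide included, passed the F test under every alternative that tested them; 8 were tested without dim genes. None of the 11 changes called in both fits changed sign under an alternative. Of those called without the set block alone, Epor in CMP versus LT-HSC went against its sign, 0.36 without the block and -0.05 with it. On the deposited scale Csf2rb2 and Il6st in MPP2 versus LT-HSC and Il6st in MPP2 versus MPP4 went against theirs. Some changes not called did too. Receptor counts called without the set block, in the order ST-HSC, MPP2, MPP3, MPP4 and CMP versus LT-HSC, were 2, 3, 4, 3 and 4. On the deposited scale, where the median of all genes itself shifted by up to 1.35, they were 9, 8, 8, 7 and 8, and with the set block 0, 1, 1, 0 and 0. In that order, 22.8%, 36.1%, 27.5%, 24.7% and 21.5% of all genes were called without the set block. With it the shares were 1.47%, 8.16%, 6.65%, 2.74% and 5.75%. Shares over all genes are not given for the other alternatives, so counts under them are not read as results about the receptors. The replicate block gave 4 for ST-HSC and 5 for MPP2 versus LT-HSC, 3 for MPP2 versus MPP4 and 1 for CMP versus MPP4, and it moved no other count by over 1.5 times. MPP2 versus MPP4 (1) became 6 on the deposited scale and 0 with median centring or the set block. MPP3 versus MPP4 (1) became 5 on the deposited scale, 0 with the set block and 0 without dim genes. MPP2 versus ST-HSC (2) became 0 on the deposited scale and with median centring. MPP2 versus MPP3 (0) became 1 with the set block and within set 3. CMP versus MPP4 (0) became 2 with median centring and 1 with the set block or without dim genes. GMP versus CMP (2) became 1 on the deposited scale and 0 with the set block. Gr versus PreGr (4) became 2 on the deposited scale and with median centring. The variance trend gave 1 for ST-HSC versus LT-HSC. Leaving out single arrays gave 1 to 4 for ST-HSC, 2 to 5 for MPP2 and 1 to 4 for CMP versus LT-HSC, 0 to 3 for MPP2 versus ST-HSC, 0 to 2 for MPP2 versus MPP4, 0 to 1 for MPP3 versus MPP4 and for CMP versus MPP4, 0 to 2 for GMP versus CMP and 2 to 4 for Gr versus PreGr. The cause of these shifts was not tested. Il5ra, below the background guide, is limited by its signal.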
